A study of Homo sapiens with 6 samples.

Results

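The genes of fatty acid and neutral lipid metabolism were followed in PC9-BrM3 cells after silencing of AKR1B10. The set held 39 genes chosen by name for their roles in fatty acid synthesis, desaturation, elongation, activation and oxidation, in triglyceride synthesis and storage, and in the regulation of these steps. All 39 were found among the 58735 genes of the table, and 35 of them reached a mean of 1 FPKM (fragments per kilobase of exon scaled to the size of the library) over the 6 libraries and were tested. Across the 3 silenced and 3 control libraries, 4 of the 35 genes were called lower and 3 were called higher, or 11.4% and 8.57% against 7.45% and 5.83% of all genes tested. Transcripts of the delta-5 and delta-6 desaturases FADS1 and FADS2, the acyltransferase GPAM and the lipid droplet coat gene PLIN3 fell. Transcripts of the elongase ELOVL7, the triglyceride lipase PNPLA2 and the triglyceride-forming enzyme DGAT2 rose.

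PC9 is an established human lung adenocarcinoma cell line, and PC9-BrM3 is a subline selected in immunodeficient mice for its ability to colonise the brain. All 6 libraries came from PC9-BrM3 cells in routine culture in RPMI-1640 with fetal bovine serum. In the shAKR1B10 group the cells, labelled AKR1B10 knockdown, carried a short hairpin RNA against AKR1B10, named vector 1 by the study, and in the shNC group, labelled WT, they carried a negative control hairpin, both in the lentiviral vector LV2. The shNC cells therefore also carried a vector, and a single hairpin against AKR1B10 was sequenced. Whether each group was a pool of cells or 1 clone, and whether the libraries of a group came from separate cultures, is not given in the sources used here, so p-values measure only the spread between these libraries.

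Cells build long-chain fatty acids from acetyl-CoA, which ACLY supplies, ACACA and ACACB carboxylate to malonyl-CoA, and FASN condenses into palmitate. Elongases of the ELOVL family and desaturases of the SCD and FADS families then shape the chains. Acyl-CoA synthetases activate fatty acids, which enter mitochondria through CPT1A and CPT2 for beta-oxidation or are esterified by GPAM, AGPAT2, LPIN1 and the DGAT enzymes to triglycerides, the neutral lipid of droplets. AKR1B10 encodes an aldo-keto reductase that reduces reactive carbonyls and retinal, and its protein is known to bind the ACACA protein, a layer that RNA-seq does not measure.

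AKR1B10 itself was read at 108, 107 and 110 FPKM in the shAKR1B10 libraries and at 799, 775 and 772 FPKM in the shNC libraries, which left 13.9% of the control level and matched the labels in all 6 libraries. Reads assigned to genes ran from 16964504 to 18709028 per library, and a count of 3 reads, the lowest level taken as detectable, corresponded to between 0.163 and 0.177 FPKM for a gene with 1000 exonic bases. Of the 6 epithelial markers, each was read at 44.8 FPKM or more in every library, whereas the 5 lung lineage markers stayed at or below 0.677 FPKM, so alveolar identity genes were near absent from these lung cancer cells. EPCAM, KRT7 and CDH1 had log2 fold changes of -0.24, -0.19 and 0.16 (adjusted p = 0.00975, 0.0207 and 0.00975 in limma). KRT8, KRT18 and KRT19 did not pass the test. The 5 adipocyte markers reached at most 1.21 FPKM with 2 of them at 0 in all libraries, and their sum ran from 1.14 to 1.33 FPKM in shAKR1B10 and from 0.830 to 1.10 FPKM in shNC. The leukocyte, endothelial, fibroblast and neural markers reached at most 1.10, 1.94, 2.02 and 0.144 FPKM. The endothelial sum ran from 2.10 to 2.37 FPKM in shAKR1B10 and from 1.52 to 1.79 FPKM in shNC, with CDH5 called higher (log2 fold change 0.65, adjusted p = 0.00390 in limma). PECAM1, too low to test, went the other way in values, at means of 0.272 FPKM in shAKR1B10 and 0.438 FPKM in shNC. The groups overlapped for VWF, so the endothelial sum mostly followed CDH5. The fibroblast sum was at most 1.34 FPKM in shAKR1B10 and at least 1.96 FPKM in shNC, with COL1A1 called lower (-0.67, adjusted p = 0.00319). The part of these markers in the lipid gene results was not tested. In bulk RNA, fewer cells expressing a gene and less of its RNA per cell cannot be told apart.

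A gene was called when limma gave a Benjamini-Hochberg adjusted p under 0.05 over the 13150 genes tested and the log2 fold change of FPKM + 0.1 (shAKR1B10 minus shNC) exceeded 0.5 in size. By this rule 11.4% of the 35 lipid genes were called lower, against 7.45% of all genes tested, and 8.57% were called higher, against 5.83% of all genes. At an adjusted p under 0.05 with no demand on the fold, 10 genes were lower and 10 were higher, or 28.6% in each direction, against 23.1% of all genes lower and 19.4% higher. The 3 libraries of a group lay entirely above or below those of the other group for 27 of the 35 genes, or 77.1%, against 54.7% of all genes. With 4 and 3 calls, the shares called lay near the background. The median log2 fold change of the 35 genes was 0.01 and that of all genes tested was -0.01, and the median size of the change, regardless of sign, was 0.24 and 0.20. The median of the set thus lay beside that of all genes, with 17 of the 35 genes below 0 and 18 above.

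**Figure D1:**
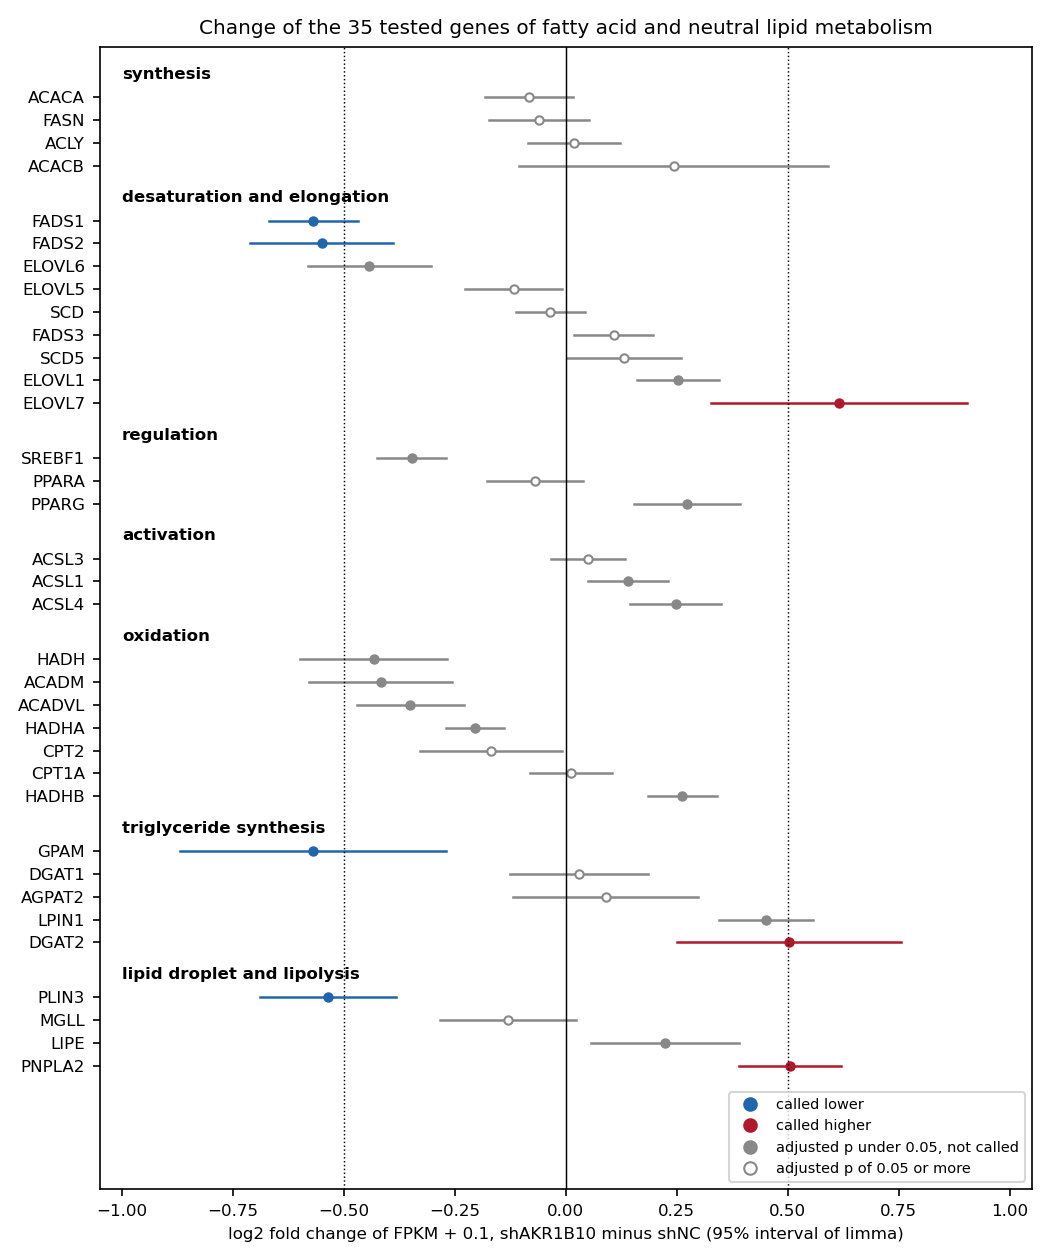
Log2 fold change (x axis, log2 of FPKM + 0.1, shAKR1B10 minus shNC) of the 35 tested genes, grouped by role, with the 95% interval of limma as a line; dotted lines mark the fold threshold of 0.5. The 4 genes called lower lie between -0.57 and -0.54, the 3 called higher between 0.50 and 0.62, and ACACA, FASN and ACLY of fatty acid synthesis lie between -0.08 and 0.02.

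No change was detected in the core of fatty acid synthesis. Of ACLY, ACACA, ACACB and FASN, none passed the test. FASN, the fatty acid synthase, was read at 220, 214 and 238 FPKM in shAKR1B10 and at 228, 232 and 240 FPKM in shNC, a log2 fold change of -0.06 with a 95% interval from -0.17 to 0.05, whose sign turned under quantile normalization. ACACA, which makes malonyl-CoA in the cytosol, was read at 14.7, 14.9 and 14.4 FPKM in shAKR1B10 and at 16.1, 15.7 and 14.9 FPKM in shNC. The groups touched at 14.9 FPKM, and the log2 fold change was -0.08 with an interval from -0.18 to 0.02 (adjusted p = 0.154 in limma), so a fall in ACACA transcript of more than 0.18 on the log2 scale lay outside the interval. ACLY differed by 0.02 on the log2 scale (interval -0.09 to 0.12). ACACB, the mitochondria-associated carboxylase, was low, at 1.30 ± 0.130 FPKM (SD, n = 3) in shAKR1B10 and 1.08 ± 0.0648 FPKM in shNC, and its interval ran from -0.10 to 0.59 at 267 to 371 reads per library.

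Among the desaturases and elongases, the FADS and ELOVL families each split. FADS1 (ENSG00000149485), the delta-5 desaturase that makes arachidonic and eicosapentaenoic acid, was read at 9.80, 10.4 and 10.4 FPKM in shAKR1B10 and at 15.4, 14.7 and 15.4 FPKM in shNC. Every silenced library lay below every control library, at a log2 fold change of -0.57 ± 0.04 (SE) and an adjusted p of 0.000123 in limma. FADS2 (ENSG00000134824), the delta-6 desaturase that precedes it in the same chain, was read at 2.71, 2.88 and 3.08 FPKM in shAKR1B10 and at 4.29, 4.11 and 4.41 FPKM in shNC. It fell by 0.55 on the log2 scale (SE 0.07, adjusted p = 0.00102), nearly the same ratio as FADS1, and by 0.44, short of the fold, with a pseudocount of 1. FADS3, the third gene of the cluster, went the other way in values, with 6.83, 6.76 and 6.79 FPKM against 6.22, 6.31 and 6.37 FPKM in shNC, a log2 difference of 0.11 that did not pass the test (adjusted p = 0.0560). FADS3 accordingly made up 34.2% of the summed FPKM of the 3 genes in shAKR1B10 and 24.5% in shNC, and FADS1 51.3% and 58.9%.

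The 3 FADS genes lie side by side on chromosome 11 (GRCh38). FADS1 is annotated on the minus strand from 61799625 to 61829318, FADS2 on the plus strand from 61792980 to 61867354, and FADS3 on the minus strand from 61873519 to 61892051. All 29694 bases of FADS1 lie within FADS2 on the opposite strand, but only 4.79% of the exonic bases of FADS1 are exonic in a gene on the other strand, and 4.44% of those of FADS2. Whether reads were counted by strand is not given in the sources used here, so reads in the shared exons cannot be assigned to either gene. The RefSeq starts of both genes, 61817003 for FADS1 and 61816404 for FADS2, lie 599 bases apart, and the 250 bases upstream of each are shown because both transcripts fell together. They are printed 5′ to 3′ on the strand of the gene, from RefSeq with build GRCh38.p14. The FADS1 sequence lies at chr11:61817004-61817253 on the minus strand and the FADS2 sequence at chr11:61816154-61816403 on the plus strand.
FADS1: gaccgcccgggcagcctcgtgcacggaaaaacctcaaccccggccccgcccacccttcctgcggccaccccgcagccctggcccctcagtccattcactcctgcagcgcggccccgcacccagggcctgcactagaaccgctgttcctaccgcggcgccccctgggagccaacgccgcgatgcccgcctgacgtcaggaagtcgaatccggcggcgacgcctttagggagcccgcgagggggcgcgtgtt
FADS2: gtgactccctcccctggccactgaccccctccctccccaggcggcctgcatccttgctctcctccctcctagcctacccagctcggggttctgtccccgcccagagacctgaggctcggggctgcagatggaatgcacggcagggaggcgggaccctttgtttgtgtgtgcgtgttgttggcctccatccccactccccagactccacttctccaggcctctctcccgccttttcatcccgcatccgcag
They share no base, and their GC contents are 72.4% and 65.6%. Both are in lower case throughout, since in these stretches none of 3 motifs searched on both strands was found: the sterol regulatory element TCACNCCAC bound by SREBP proteins, the CCAAT box and the E-box CACGTG. The first 50 transcribed bases, searched as well but not shown, hold a CCAAT just after the FADS2 start. A second RefSeq start of FADS2 upstream of this one is not shown, and its window held none of the 3 motifs.

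Among the elongases, ELOVL7 rose and ELOVL6 fell. ELOVL7 (ENSG00000164181) was read at 3.81, 3.40 and 3.49 FPKM in shAKR1B10 and at 2.54, 1.90 and 2.49 FPKM in shNC. The groups did not overlap, at a log2 fold change of 0.62 ± 0.12 (SE, adjusted p = 0.00721 in limma), although shNC replicate 2 stood apart at 1.90 FPKM and the fold change was 0.49 without it and 0.47 with a pseudocount of 1, both under the threshold. ELOVL6, which extends palmitate to stearate, was read at 3.94, 3.53 and 3.74 FPKM in shAKR1B10 and at 5.26, 5.10 and 4.97 FPKM in shNC. It fell by 0.44 on the log2 scale (adjusted p = 0.00137), short of the fold threshold. ELOVL1, which makes very long chains, rose from 44.1 ± 1.31 to 52.6 ± 1.73 FPKM (SD, n = 3), a log2 fold change of 0.25 with an adjusted p of 0.00253. ELOVL5, which extends polyunsaturated chains between the steps of FADS2 and FADS1, had a log2 difference of -0.12 and an adjusted p of 0.0787. ELOVL1 remained the largest of the 4 elongases, at 65.8% of their summed FPKM in shAKR1B10 and 60.2% in shNC, while ELOVL6 made up 4.68% and 6.98%.

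Of the stearoyl-CoA desaturases, SCD had the highest transcript level of the whole set, and neither SCD nor SCD5 passed the test. SCD, which makes oleate, was read at 323, 328 and 325 FPKM in shAKR1B10 and at 344, 331 and 325 FPKM in shNC, a log2 difference of -0.04 with an interval from -0.11 to 0.04, whose sign turned under TPM scaling and quantile normalization. SCD5 differed by 0.13 (interval 0.00 to 0.26, adjusted p = 0.0945). Thus, of the desaturases, the polyunsaturated enzymes fell, and for SCD changes larger than 0.11 on the log2 scale lay outside the interval.

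**Figure D2:**
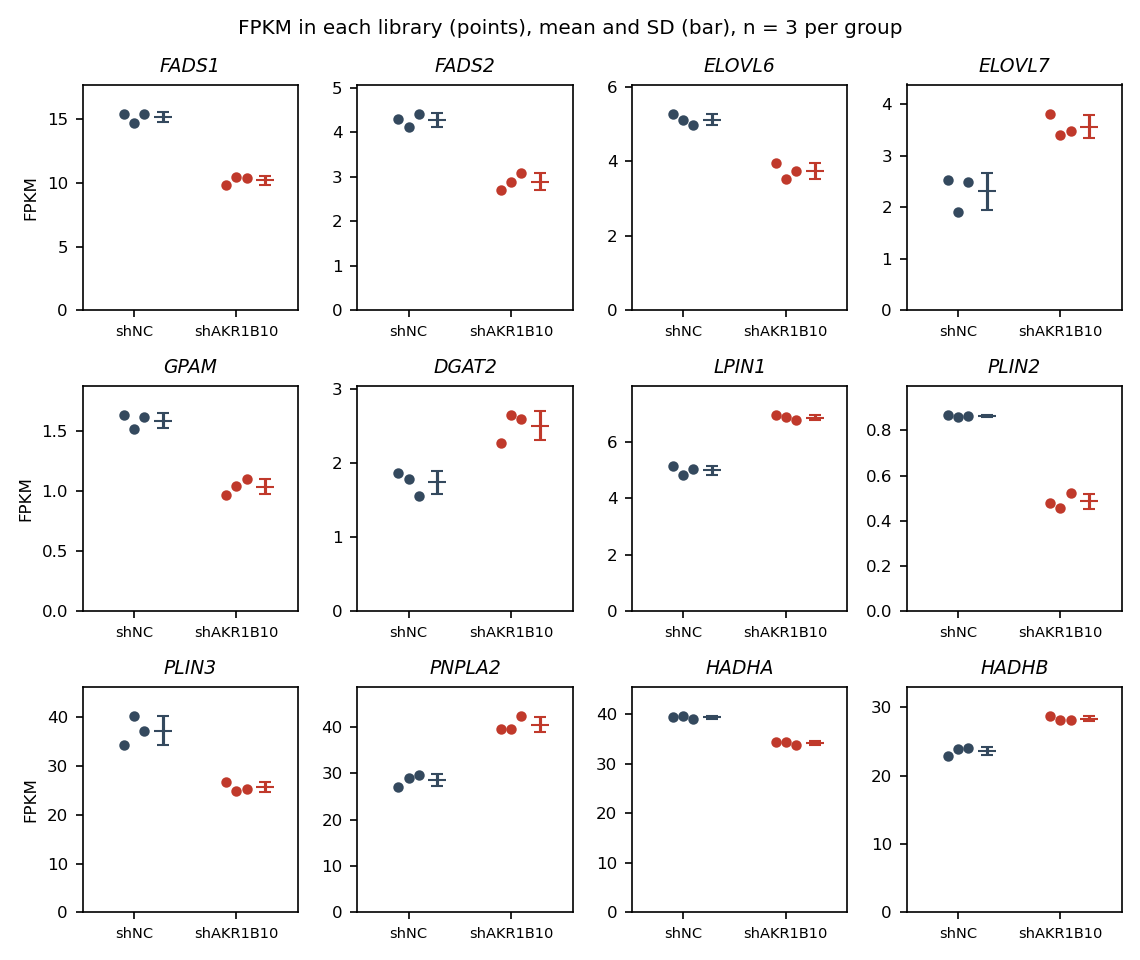
FPKM (y axis, linear from 0) of 12 genes in each of the 3 shNC and 3 shAKR1B10 libraries, with the mean and SD beside the points. In all 12 panels the points of the 2 groups do not overlap. FADS1, FADS2, ELOVL6, GPAM, PLIN2, PLIN3 and HADHA are lower and ELOVL7, DGAT2, LPIN1, PNPLA2 and HADHB are higher in shAKR1B10. The 12 genes are a selection, and groups did not overlap for 77.1% of the 35 tested genes and 54.7% of all genes tested.

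Of the transcription factors, SREBF1 and PPARG moved in opposite directions and PPARA did not pass. SREBF1, whose SREBP-1 protein drives genes of fatty acid synthesis, was read at 38.8, 38.05 and 39.002 FPKM in shAKR1B10 and at 47.6, 49.5 and 50.3 FPKM in shNC. It fell by 0.35 on the log2 scale (SE 0.03, adjusted p = 0.000350 in limma), below the fold threshold, with no overlap between groups. PPARG, the nuclear receptor of fat cell differentiation, rose from 14.6, 13.9 and 12.9 FPKM in shNC to 16.7, 16.9 and 16.4 FPKM, a log2 fold change of 0.27 with an adjusted p of 0.00563. PPARA, the receptor that drives oxidation genes, differed by -0.07 (interval -0.18 to 0.04), and its control libraries lay within 4.18 to 4.20 FPKM. Exons of SREBF1 overlap those of RAI1 on the opposite strand over 6.92% of their bases.

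Other regulators on a wider list of 16 were described beside these, and of the 14 tested 1 fell and 6 rose at an adjusted p under 0.05, or 7.14% and 42.9% against 23.1% and 19.4% of all genes. INSIG1, which holds SREBP precursors in the endoplasmic reticulum and is itself a target of SREBP, was the 1 gene among them that was called, rising from 22.4 ± 0.262 to 39.3 ± 1.83 FPKM (SD, n = 3; log2 fold change 0.81, adjusted p = 3.05e-05). SREBF2, which drives cholesterol genes, rose by 0.22, RXRA, the partner of PPAR receptors, by 0.36, and NR1H3, an oxysterol receptor, by 0.37 on the log2 scale. The 1 gene that fell was SCAP, the escort of SREBP precursors, by 0.17 (adjusted p = 0.0258, but from 0.0516 to 0.0804 without any 1 library other than shNC replicate 1, and 0.0906 under TPM scaling). The SREBP proteases MBTPS1 and MBTPS2 rose by 0.13 and 0.21, but not in 4 and 5 of the 6 fits with 1 library left out, and the count of 6 went down to 4 without shAKR1B10 replicate 1 or 2 or shNC replicate 2 or 3. SREBF1 transcript thus fell while those of INSIG1 and SREBF2 rose.

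No listed acyl-CoA synthetase was called, and ACSL4 and ACSL1 rose by small steps. ACSL4, which prefers polyunsaturated chains such as arachidonate, rose from 13.8, 13.3 and 12.8 FPKM in shNC to 15.8, 16.2 and 15.3 FPKM in shAKR1B10, a log2 fold change of 0.25 with an adjusted p of 0.00447 in limma. ACSL1 rose by 0.14 (adjusted p = 0.0236), and ACSL3, the most abundant at 52.1 ± 1.70 FPKM in shNC, differed by 0.05 with an interval from -0.03 to 0.13. ACSL1 no longer passed, with adjusted p from 0.0540 to 0.0751, when shAKR1B10 replicate 2 or 3 or shNC replicate 2 or 3 was left out. ACSL5 was too low to test, at 49 to 69 reads per library. On the wider activation list, ACSF2, an acyl-CoA synthetase of mitochondria, rose from 14.4 ± 0.478 to 20.5 ± 0.0489 FPKM (log2 fold change 0.51, adjusted p = 0.000114), and without shNC replicate 1 or with a pseudocount of 1 the value was 0.48. Of the 11 genes of that list that were tested, 3 fell and 3 rose at an adjusted p under 0.05, or 27.3% each against 23.1% and 19.4% of all genes. Of the fatty acid transport proteins, which also have acyl-CoA synthetase activity, SLC27A4 rose by 0.42 (adjusted p = 0.00473) and SLC27A1 fell by 0.30 (adjusted p = 0.0105). Of the thioesterases, which release fatty acids from CoA, ACOT2 rose by 0.38 (adjusted p = 0.00454), with reads that may be shared with its near copy ACOT1. ACOT7 fell by 0.36 (adjusted p = 0.00252), with 20.3% of its exonic bases in AL031848.2 on the other strand. ACOT9 fell by 0.27 (adjusted p = 0.0235), but had adjusted p from 0.0575 to 0.0729 in 4 of the 6 fits with 1 library left out.

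Of the mitochondrial oxidation genes, most of those listed were lower, by small steps. Of the 7 listed genes, 4 fell and 1 rose at an adjusted p under 0.05, or 57.1% and 14.3% against 23.1% and 19.4% of all genes, and no gene passed the fold threshold. The medium-chain dehydrogenase ACADM was read at 10.4, 11.6 and 9.99 FPKM in shAKR1B10 and at 15.1, 13.9 and 13.7 FPKM in shNC, and fell by 0.42 on the log2 scale (adjusted p = 0.00330 in limma). HADH, the short-chain hydroxyacyl-CoA dehydrogenase, was read at 3.90, 3.52 and 3.56 FPKM against 5.26, 5.05 and 4.63 FPKM and fell by 0.43 (adjusted p = 0.00317). Both genes thus stood near 74% of their control level, at 74.8% for ACADM and 73.5% for HADH. ACADVL, the very-long-chain dehydrogenase and the most abundant of the 7, was read at 71.9, 72.4 and 72.9 FPKM against 85.4, 95.9 and 96.0 FPKM and fell by 0.35 (adjusted p = 0.00200). The carnitine palmitoyltransferases did not pass. CPT1A, the entry step of long chains into mitochondria, differed by 0.01 (interval -0.08 to 0.10), and CPT2 by -0.17 (interval -0.33 to -0.01, adjusted p = 0.0840).

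The subunits of the mitochondrial trifunctional protein, which carries out the last steps of long-chain oxidation as a complex of HADHA and HADHB, went in opposite directions. HADHA was read at 34.4, 34.3 and 33.7 FPKM in shAKR1B10 and at 39.4, 39.7 and 39.1 FPKM in shNC, and fell by 0.21 on the log2 scale (SE 0.03, adjusted p = 0.00149 in limma). HADHB was read at 28.7, 28.1 and 28.1 FPKM against 22.9, 23.9 and 24.0 FPKM, and rose by 0.26 (SE 0.03, adjusted p = 0.00109). The share of HADHB in the summed FPKM of both was 45.5%, 45.1% and 45.4% in shAKR1B10 and 36.8%, 37.6% and 37.99% in shNC, so the groups did not overlap. The exact two-sided permutation test of this share gave p = 0.10, the smallest value that 3 against 3 libraries allow, or 0.112 after adjustment over 19 family shares, of which 17 reached that smallest value.

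Both genes lie head to head on chromosome 2 (GRCh38), HADHA from 26190635 to 26244726 on the minus strand and HADHB from 26243170 to 26290468 on the plus strand, with no exonic base shared with another gene. Their RefSeq starts, 26244632 and 26244939, lie 307 bases apart, so the 250 bases upstream of each share 194 bases of 1 short region. By their annotated ranges the genes overlap by 1557 bases. The stretch upstream of HADHA, chr2:26244633-26244882 on the minus strand (RefSeq, GRCh38.p14), lies within the annotated range of HADHB. It is shown because it lies between the RefSeq starts of these oppositely changed transcripts.
HADHA: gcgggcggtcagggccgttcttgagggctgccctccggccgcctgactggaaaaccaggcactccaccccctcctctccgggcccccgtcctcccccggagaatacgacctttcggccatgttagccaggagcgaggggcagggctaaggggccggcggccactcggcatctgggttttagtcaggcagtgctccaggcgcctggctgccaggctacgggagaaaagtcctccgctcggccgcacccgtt
Its GC content is 68.8%, and none of the 3 motifs named for the FADS genes lay in it.

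Genes of triglyceride synthesis changed at several steps and not in 1 direction. GPAM (ENSG00000119927), the mitochondrial acyltransferase that adds the first fatty acid to glycerol 3-phosphate, was read at 0.969, 1.04 and 1.10 FPKM in shAKR1B10 and at 1.63, 1.51 and 1.61 FPKM in shNC, from 168 to 294 reads per library. No silenced library reached a control library, and the log2 fold change was -0.57 ± 0.13 (SE, adjusted p = 0.0114 in limma). With a pseudocount of 1, which weighs on a gene at this level, it was -0.34 and no longer called. On the wider list GPAT3, the acyltransferase of the same step in the endoplasmic reticulum, fell from 3.95 ± 0.296 to 2.39 ± 0.204 FPKM (log2 fold change -0.70, adjusted p = 0.00123). GPAT4, a further enzyme of this step, differed by 0.11 (adjusted p = 0.221). Of the 9 wider triglyceride synthesis genes tested, 3 fell and 1 rose at an adjusted p under 0.05, or 33.3% and 11.1% against 23.1% and 19.4% of all genes. Besides GPAT3, the acyltransferases of the next step AGPAT1 and AGPAT5 fell by 0.27 and 0.18 on the log2 scale (adjusted p = 0.00913 and 0.0139). Of the exonic bases of AGPAT1 29.9% lie in genes on the other strand, and AGPAT5 had an adjusted p of 0.0623 under TPM scaling. LPIN3, a phosphatidate phosphatase, rose by 0.40 (adjusted p = 0.00635).

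Of the listed genes downstream, LPIN1 and DGAT2 rose. LPIN1, the phosphatidate phosphatase that forms diacylglycerol, was read at 6.94, 6.86 and 6.75 FPKM in shAKR1B10 and at 5.14, 4.81 and 5.01 FPKM in shNC, and rose by 0.45 on the log2 scale (SE 0.04, adjusted p = 0.000426 in limma), just under the fold threshold. DGAT2 (ENSG00000062282), which adds the last fatty acid, was read at 2.28, 2.65 and 2.59 FPKM against 1.87, 1.79 and 1.56 FPKM, and its log2 fold change of 0.50 ± 0.11 (SE, adjusted p = 0.00938) lay just over it. Leaving out shAKR1B10 replicate 2, shAKR1B10 replicate 3 or shNC replicate 3 gave 0.46, 0.48 and 0.43, which ended the call through the fold and not through the adjusted p, as did quantile normalization, at 0.48, and a pseudocount of 1, at 0.36. DGAT1, the other enzyme of that last step, differed by 0.03 (interval -0.13 to 0.18) and remained the more abundant, so that DGAT2 made up 13.2% of their summed FPKM in shAKR1B10 and 9.77% in shNC. AGPAT2 differed by 0.09 with an interval from -0.12 to 0.30, and shNC replicate 1, at 48.6 FPKM, lay below the other control libraries at 59.8 and 60.0 FPKM.

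At the lipid droplet, the coat gene PLIN3 fell and the lipase PNPLA2 rose. PLIN3 (ENSG00000105355), a perilipin that moves from the cytosol to nascent droplets, was read at 26.8, 24.8 and 25.2 FPKM in shAKR1B10 and at 34.2, 40.2 and 37.2 FPKM in shNC. It fell by 0.54 on the log2 scale (SE 0.06, adjusted p = 0.000918 in limma). Without shNC replicate 2 the log2 fold change was -0.48, under quantile normalization -0.47 and under TPM scaling -0.4995, all past the adjusted p and short of the fold. Of its exonic bases 17.9% overlap AC027319.1 on the other strand, which had 0 reads in all libraries. Whether counting used strand is not given, so this 0 does not show whether PLIN3 reads were affected. PLIN2, the coat protein whose level usually follows stored lipid, was too low for the test, with 43, 42 and 47 reads in shAKR1B10 and 81, 74 and 80 reads in shNC, or 0.478, 0.457 and 0.521 FPKM against 0.868, 0.860 and 0.862 FPKM. The groups did not overlap, and in the fit without the filter on low values its log2 fold change was -0.72 ± 0.17 (SE, adjusted p = 0.0371).

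PNPLA2 (ENSG00000177666), adipose triglyceride lipase, which removes the first fatty acid from stored triglyceride, was read at 39.7, 39.6 and 42.4 FPKM in shAKR1B10 and at 27.1, 28.99 and 29.7 FPKM in shNC. It rose with no overlap between groups, at a log2 fold change of 0.50 ± 0.05 (SE, adjusted p = 0.000368 in limma). The estimate sat on the fold threshold, and without shAKR1B10 replicate 3 or shNC replicate 1 it was 0.47 in both cases, and with a pseudocount of 1 it was 0.49. Of the exonic bases of PNPLA2 10.4% overlap AP006621.1 on the other strand. LIPE, the hormone-sensitive lipase that cuts diacylglycerol, rose by 0.22 (adjusted p = 0.0397), but did not pass, with adjusted p from 0.0689 to 0.110, when any 1 library other than shNC replicate 2 was left out. MGLL, which releases the last fatty acid, differed by -0.13 (interval -0.28 to 0.02). PNPLA2 made up 81.9%, 82.8% and 83.0% of the summed FPKM of the 3 lipases in shAKR1B10 and 76.8%, 76.4% and 77.8% in shNC (exact permutation p = 0.10).

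The promoter of PNPLA2 is shown because it was 1 of only 2 among 60 RefSeq windows of the listed genes, the other being that of ACSL1, that held the sterol regulatory element TCACNCCAC or its reverse complement. The 250 bases lie at chr11:818664-818913 on the plus strand (RefSeq, GRCh38.p14), and the match, GTGGGGTGA, starts 153 bases upstream of the start and is in capitals.
PNPLA2: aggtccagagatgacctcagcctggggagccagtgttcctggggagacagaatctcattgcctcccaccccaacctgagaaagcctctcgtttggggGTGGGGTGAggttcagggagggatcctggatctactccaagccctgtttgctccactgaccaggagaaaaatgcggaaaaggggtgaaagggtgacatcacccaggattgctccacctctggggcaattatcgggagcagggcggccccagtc
The match overlaps neither of the other motifs. The windows ran from 250 bases before to 50 bases after each start and were found for 34 of the 39 genes, with no entry used for FASN, DGAT1, DGAT2, MGLL and FABP5. The sterol regulatory element lay in 3.33% of these 60 windows and in 1.13% of all 35116, CCAAT in 35% and 34.6%, and CACGTG in 3.33% (ELOVL5 and PLIN2) and 7.26%. With 2 matches, these shares are a description of letters only.

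Factors that act on PNPLA2 or on droplets were covered by a wider list of 17 genes, of which 11 were tested, 3 rose and none fell at an adjusted p under 0.05, or 27.3% higher and 0% lower against 19.4% and 23.1% of all genes. HILPDA, a droplet protein that inhibits PNPLA2, rose from 7.52 ± 0.201 to 10.8 ± 0.241 FPKM (SD, n = 3; log2 fold change 0.51, adjusted p = 0.000160 in limma), and without shAKR1B10 replicate 3 or shNC replicate 2 the values were 0.4966 and 0.4959, and with a pseudocount of 1 it was 0.47, all under the threshold. Its exons share 13.2% of their bases with other genes on the same strand. LIPA, the acid lipase of lysosomes, rose by 0.12 (adjusted p = 0.0420), but did not pass, with adjusted p from 0.0631 to 0.125, when any 1 library other than shAKR1B10 replicate 3 was left out. ABHD5, the coactivator of PNPLA2, differed by 0.06 (adjusted p = 0.546). PLIN5, the perilipin that ties droplets to mitochondria, rose from 1.01 ± 0.0940 to 1.64 ± 0.419 FPKM at an adjusted p of 0.0456, and was lost with adjusted p between 0.0696 and 0.134 when any 1 library other than shAKR1B10 replicate 2 was left out. Its exons share 21.7% of their bases with AC011498.4 on the same strand. The count of 3 genes that rose in the wider droplet list was 1 without shAKR1B10 replicate 1 or any shNC replicate, and 2 without shAKR1B10 replicate 2 or 3.

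The 2 listed genes of uptake and carriage held almost no reads. FABP5, the epidermal fatty acid binding protein, was at 0 reads in all 6 libraries, which allows up to 3 reads, and its 13 annotated pseudogenes held 0 to 3 reads in sum per library. How reads that map to several places were treated is not given in the sources used here. CD36, the fatty acid translocase, had 12, 10 and 9 reads in shAKR1B10 and 7, 4 and 3 reads in shNC, and its adjusted p in the fit without the filter was 0.324. Neither gene supports a comparison.

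**Figure D3:**
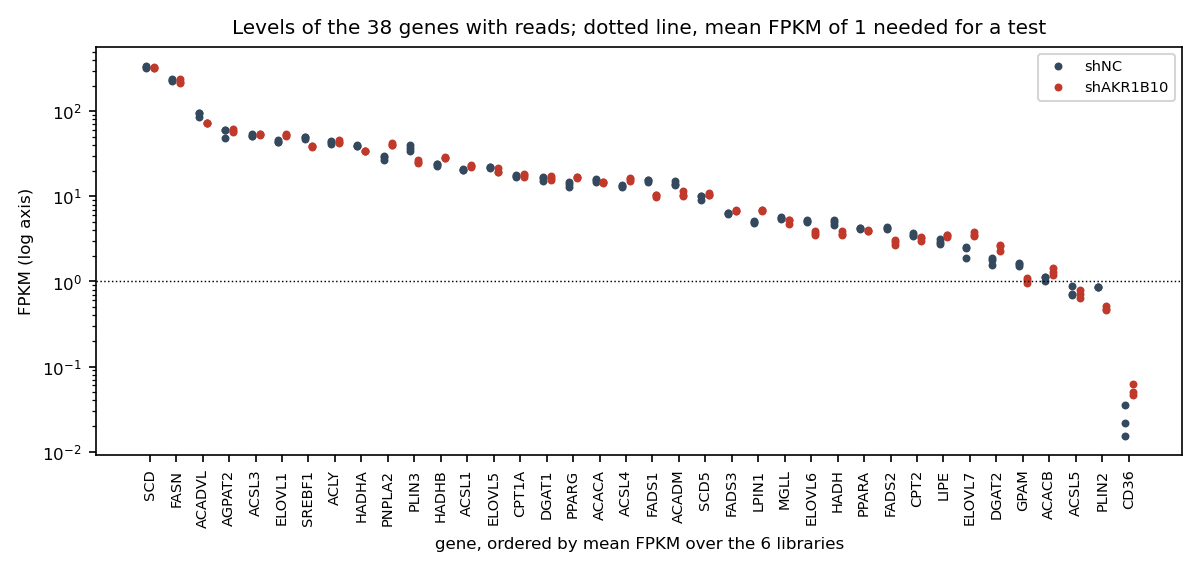
FPKM (y axis, log scale) of the 38 genes with reads, ordered by their mean over the 6 libraries, with 1 point per library (shNC left, shAKR1B10 right). SCD and FASN lead at means of 329 and 229 FPKM, and ACSL5, PLIN2 and CD36 lie under the dotted line at 1 FPKM.

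By level, the set was led by SCD at a mean of 329 FPKM and FASN at 229 FPKM over the 6 libraries, followed by ACADVL at 82.4 FPKM, AGPAT2 at 57.8 FPKM and ACSL3 at 53.1 FPKM. FPKM is scaled here by the summed exonic length of each gene and not by the length of the transcripts in use, so the order holds on that scale only, and a gene with much unused annotated exon is placed too low. SCD and FASN lay apart beyond their spread, at 334 ± 9.36 and 233 ± 5.75 FPKM (SD, n = 3) in shNC, whereas AGPAT2, at 56.1 ± 6.50 FPKM, and ACSL3, at 52.1 ± 1.70 FPKM, did not. The called genes were spread from PNPLA2 and PLIN3, at means of 34.6 and 31.4 FPKM, through FADS1 at 12.7 FPKM, to FADS2, ELOVL7, DGAT2 and GPAM, at 3.58, 2.94, 2.12 and 1.31 FPKM. The most abundant synthesis genes were thus not among those called.

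Oxidation was followed further on a wider list of 30 other genes, of which 24 were tested, 8 fell and 6 rose at an adjusted p under 0.05, or 33.3% and 25% against 23.1% and 19.4% of all genes. ACAA2, the last thiolase of the mitochondrial cycle, fell from 6.76 ± 0.382 to 3.73 ± 0.0906 FPKM (SD, n = 3; log2 fold change -0.84, adjusted p = 9.12e-05 in limma). ETFDH, which passes electrons from the acyl-CoA dehydrogenases to ubiquinone, fell from 5.16 ± 0.351 to 3.01 ± 0.0615 FPKM (log2 fold change -0.76), and its electron donor ETFB fell by 0.31 on the log2 scale. The partner of ETFB, ETFA, fell by 0.19, with adjusted p of 0.0557 without shAKR1B10 replicate 2, 0.0584 without shAKR1B10 replicate 3 and 0.117 under quantile normalization. Of the exonic bases of ETFDH 13.8% lie in exons of other genes on the opposite strand. ECI2, an isomerase for unsaturated chains found in mitochondria and peroxisomes, fell by 0.63 (adjusted p = 0.0133), and by 0.41 with a pseudocount of 1, which ended the call. Of its exonic bases 29.8% are shared with genes on the other strand. In the counts by organelle ECI2 was placed with the mitochondrial genes only. DECR1, a reductase for unsaturated chains, rose by 0.35 (adjusted p = 0.00425). Together with the 7 listed genes, 10 of 21 mitochondrial genes fell and 2 rose at an adjusted p under 0.05, or 47.6% and 9.52% against 23.1% and 19.4% of all genes, with a median log2 fold change of -0.19.

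Among the peroxisomal genes of the same list, more passed the test as higher than as lower. CROT, which makes carnitine esters for export of shortened chains from peroxisomes, rose from 13.3 ± 0.303 to 23.1 ± 0.645 FPKM (SD, n = 3; log2 fold change 0.79, adjusted p = 2.65e-05 in limma). The thiolase ACAA1 rose by 0.39, ACOX3 by 0.24, the reductase DECR2 by 0.21 and the transporter ABCD3 by 0.17, the last with an adjusted p of 0.0504 without shAKR1B10 replicate 1. Of the exonic bases of ACAA1 19.7% lie in DLEC1 on the other strand, and 14.1% of those of DECR2 in NME4 on the same strand. DECR2 passed narrowly, and leaving out any 1 library other than shAKR1B10 replicate 2 gave adjusted p from 0.0543 to 0.132. ACOX2, the oxidase of branched chains and bile acid precursors, went against them and fell from 3.30 ± 0.334 to 1.28 ± 0.137 FPKM (log2 fold change -1.30, adjusted p = 0.000290), the largest fall of the 85 tested genes of the wider list, and the reductase PECR fell by 0.45. Of 10 peroxisomal genes tested, 5 rose and 2 fell at an adjusted p under 0.05, or 50% and 20% against 19.4% and 23.1% of all genes, with a median log2 fold change of 0.14. Without shAKR1B10 replicate 1, 3 rose and 2 fell. The split by organelle was made after the values were seen, and the difference between the groups was not tested.

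**Figure D4:**
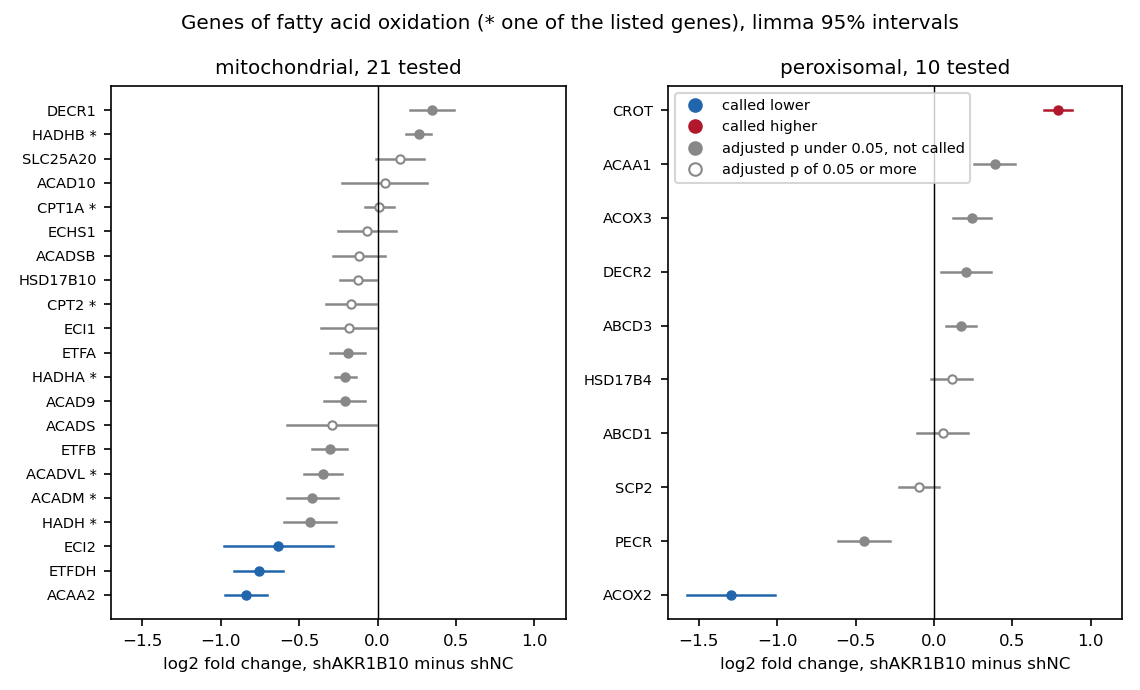
Log2 fold change (x axis, shAKR1B10 minus shNC) of 21 mitochondrial and 10 peroxisomal oxidation genes with the 95% interval of limma; an asterisk marks genes of the set of 39. ACAA2, ETFDH and ECI2 lie lowest among the mitochondrial genes, and CROT lies farthest to the right of 0 and ACOX2 farthest to the left among the peroxisomal ones. ECI2, found in both organelles, is placed with the mitochondrial genes only.

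Over all 120 genes of the wider list, 85 were tested. Of these 5 were called lower and 5 higher, or 5.88% each against 7.45% and 5.83% of all genes. The count called higher was 3 without shAKR1B10 replicate 3, shNC replicate 1 or shNC replicate 2, and 2 with a pseudocount of 1. At an adjusted p under 0.05, 18 fell and 22 rose, or 21.2% and 25.9% against 23.1% and 19.4%, with a median log2 fold change of 0.04. Of the 7 other desaturation and elongation genes tested, 3 fell and none rose, or 42.9% and 0%. ELOVL3, at 13 to 40 reads per library, had a log2 difference of 0.80 that narrowly did not pass (adjusted p = 0.0513 in limma). Among the 4 dehydratases that work beside the elongases, HACD2 and HACD3 fell by 0.45 and 0.20 on the log2 scale, and HACD1 and HACD4 had log2 differences of 0.09 and 0.07 (adjusted p = 0.317 and 0.684). HSD17B12, the ketoacyl-CoA reductase of elongation, fell by 0.21 (adjusted p = 0.0310), but had adjusted p from 0.0640 to 0.0860 when any 1 library other than shAKR1B10 replicate 1 was left out. Of 5 wider synthesis genes tested, 2 rose and none fell, or 40% and 0%: ACSS2, which makes acetyl-CoA from acetate, by 0.27, and the citrate carrier SLC25A1 by 0.21, the latter with adjusted p from 0.0547 to 0.0622 when shAKR1B10 replicate 1 or 3 was left out.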

How the data were processed

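RNA of 3 shAKR1B10 and 3 shNC libraries of PC9-BrM3 cells was purified with poly-T beads and made into cDNA libraries. The authors aligned reads with HISAT2 2.0.5, counted them per gene with featureCounts 1.5.0-p3 (both per the submitters' processing notes) and deposited 1 table of FPKM values, without pooling. All 58735 genes matched GENCODE 29 (GRCh38) by position and strand. Multiplying FPKM by gene length and by a library size recovered from the low values gave whole reads for 100% of values (tolerance 0.001). The library sizes so recovered differ from the sums of reads, so a scaling between libraries is part of the deposited FPKM. The study ran its own test on counts; the deposited FPKM was tested here on the log2 scale.

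Groups and replicate numbers came from the sample titles, and the labels name no batch. The limma package (3.58.1, R 4.3.3) compared log2(FPKM + 0.1) between the groups for the 13150 genes that averaged 1 FPKM or more, with eBayes moderation along a trend and Benjamini-Hochberg adjustment. A fold change on this scale understates that of low genes. Family shares were compared by exact permutation in Python 3.11.15 with scipy 1.17.1. The code was tested on simulated data. Every one of the 39 genes is reported, with the called genes of a list of 120 other lipid genes; other genes of that list were named after their values were seen. A further gene of that list is not reported here and is left out of its counts. The members and lists were chosen with earlier results of these data known. The intervals are those of limma and rest on the spread between these libraries. A limit given from reads covers counting error only. Promoter sequences are from RefSeq.

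The counts of calls, the median of the listed genes and the fold changes of these and of the called wider genes were recomputed with the pseudocount at 1 or 0.01, with the filter removed or raised to 5 FPKM, after TPM scaling or quantile normalization, without the eBayes trend, by limma voom on the recovered reads, with a replicate block, at other fold thresholds, and leaving out every library in turn. Genes under 5 FPKM have no value at that filter, and family shares were not recomputed. No protein sequence was used here.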

Additional observations from a re-analysis of the deposited data

How the results depend on the processing

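The number of listed genes called lower was 4 and the number called higher 3. Both counts depended on the fold threshold: with none, 10 were lower and 10 higher, and at a log2 fold change of 1, 0 and 0 (in limma at an adjusted p under 0.05). With a pseudocount of 1, which lost FADS2, GPAM, ELOVL7, DGAT2 and PNPLA2, they were 2 and 0, and with a mean FPKM of at least 5, which left 25 genes, 2 and 1. Leaving out 1 library in turn gave 3 to 4 lower and 1 to 3 higher, the lowest without shAKR1B10 replicate 3, where PNPLA2 and DGAT2 were lost. The median log2 fold change of 0.0116 moved to -0.0118 with no filter, 0.0486 with TPM scaling and 0.0663 with quantile normalization, and ran from -0.0147 to 0.0237 with 1 library left out, so its sign was not fixed. FADS1 was called under every alternative fit at the fold threshold of 0.5. In 45 genes and 660 recomputed values, 620 kept direction and call, 30 lost the call and 10 changed sign, each of the 10 in a gene that was not called.

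The sign changes were ACLY at -0.0096 without shAKR1B10 replicate 1 and -0.0098 without shNC replicate 3 (-0.0098 to 0.0474 over the 6 libraries left out), FASN at 0.00099 under quantile normalization, SCD at 0.0019 under TPM scaling and 0.076 under quantile normalization, CPT1A at -0.011 without shAKR1B10 replicate 3 and -0.0027 without shNC replicate 3 (-0.011 to 0.0379), AGPAT2 at -0.010 without shNC replicate 1 (-0.010 to 0.141), and DGAT1 at -0.015 without shAKR1B10 replicate 3 and -0.018 without shNC replicate 1 (-0.018 to 0.0767). The replicate numbers share only a number: deviations of same-numbered libraries correlated at -0.016, 0.0039 and 0.0038. With the replicate block 4 listed genes were lower and 3 higher, the call of PLIN5 was lost (adjusted p = 0.0776), LIPE had an adjusted p of 0.0630, and 1 gene of the wider droplet list rose in place of 3. Depth limits the reading of ACSL5, PLIN2 and CD36.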
